A study of Mus musculus with 12 samples.

Results

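The RNAs described here are the antisense noncoding RNAs of cultured mouse peritoneal macrophages, phagocytes that live in the abdominal cavity. They were selected on their level in a gene count table: genes whose biotype is antisense and whose mean reached 1 CPM (counts divided by the library total, per 1000000) in at least 1 of 4 groups of libraries. The rule found 100 of the 1838 antisense genes in the table, which lists 43346 genes in all, and 178 long intergenic noncoding RNAs (lincRNAs) passed the same threshold. Macrophages of C57BL/6 mice lacking CD36, a scavenger receptor for oxidised lipoproteins (CD36 KO), or of wild-type mice (WT) were kept in RPMI1640 with serum. For 8 h they received oxLDL, low-density lipoprotein that has been oxidised, at 20 µg/ml, or none (control). The groups were thus CD36 KO oxLDL, CD36 KO control, WT oxLDL and WT control, with 3 libraries each. The labels give neither the age of the mice nor how the knockout was made, and do not say whether the 3 libraries of a group came from separate animals, so p-values measure the spread between these libraries only.

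An antisense RNA is transcribed from the strand opposite a coding gene. Some start back to back with a coding gene and leave a shared promoter region in the other direction, others start inside the gene and run against it, and a few well-studied cases, such as Airn and Kcnq1ot1, silence neighbouring imprinted genes in cis. In macrophages, several noncoding RNAs of this kind are known to be induced together with inflammatory and interferon genes. oxLDL is the modified lipid particle that macrophages take up in the arterial wall on their way to becoming foam cells.

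The 12 libraries held 35257762 to 65135955 counts. Cd36, the deleted gene, had 190 to 204 CPM in CD36 KO oxLDL, 455 to 511 in CD36 KO control, 1900 to 3820 in WT oxLDL and 5270 to 5470 in WT control libraries, on a scale adjusted for library composition (trimmed mean of M-values, TMM), which is used for all levels below unless stated. The macrophage markers were abundant in every library, with a summed level of 15000 to 35100 CPM over the 7 of 8 markers that the table holds. WT oxLDL replicate 1 stood apart from replicates 2 and 3 of its group. Its TMM factor was 0.729, against 0.864 and 0.838 in those libraries. The chi-square per degree of freedom of its counts against theirs was 466.31 and 423.43, and 9.88 between replicates 2 and 3. The macrophage marker Itgam was at 367 CPM in replicate 1 and at 1140 and 1190 CPM in replicates 2 and 3. Markers of other peritoneal cells moved with the genotype and with oxLDL. The 6 B cell markers summed to 128 to 164 CPM in CD36 KO oxLDL, 111 to 283 in CD36 KO control, 14.6 to 27.6 in WT oxLDL and 16.9 to 40.1 in WT control. The 4 fibroblast markers summed to 1070 to 1360, 1100 to 1980, 413 to 567 and 429 to 761 CPM in the same 4 groups, and the 4 mesothelial markers to 21.8 to 26.4, 32.8 to 57.7, 9.57 to 11.6 and 16.1 to 29.2 CPM. The 4 mast cell markers summed to 3.76 to 5.49 CPM in CD36 KO oxLDL, 4.27 to 5.44 in CD36 KO control, 1.35 to 2.69 in WT oxLDL and 1.28 to 1.62 in WT control. With oxLDL the 4 neutrophil markers summed to 14.9 to 25.2 CPM in CD36 KO oxLDL, against 5.78 to 6.53 in CD36 KO control, and to 26.8 to 59.5 in WT oxLDL, against 6.6 to 8.04 in WT control. The 3 eosinophil markers, of which Epx had 0 counts, summed to 3.35 to 3.7 CPM in CD36 KO oxLDL, against 13.6 to 15.2 in CD36 KO control, and to 2.62 to 2.77 in WT oxLDL, against 16.3 to 17.9 in WT control. Of the neutrophil markers, S100a8 made up most of the sum and Camp also rose with oxLDL. S100a9 and Ly6g stayed under 1 CPM in every library. The eosinophil sum was almost all Siglecf, and Prg2 was under 1 CPM in every library. The part of these cell types in the differences below was not tested. In bulk RNA, more cells of a type and more RNA per cell cannot be told apart.

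Of the 100 antisense RNAs, 97 were found by gene ID in GENCODE M21, on the same mouse build (mm10). There, 83 are still typed antisense and 14 have another type, among them 3 that are now coding (Inafm2, Toporsos and Fcor). A coding gene on the opposite strand overlaps 77 of them, 1 has a coding partner on its own strand only (Gm17024 with Ifrd1), and 19 overlap no coding gene. The start of 40 lies within 1000 bases of an opposite-strand coding start: 23 start upstream of it, back to back with the coding gene, and 17 start downstream of it, inside the gene. Another 46 lie in or overlap a coding gene but start farther from it. The exons of 29 share no base with those of any other gene, and those of 7 share over 50% of their bases. Whether reads were counted by strand is not given in the sources used here, so reads of an antisense RNA and of the exons it shares with its coding gene cannot be told apart.

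The promoter windows below are shown because they belong to the antisense RNAs that the oxLDL comparisons turn on and for which RefSeq (GRCm38.p6) gives a window of 250 bases before to 50 bases after the start. For Gm13822 the window is that of Oasl1, its coding partner: the GENCODE start of Gm13822 lies 37 bases downstream of the Oasl1 start, on the other strand. By its GENCODE start, BC051226 lies 97 bases from the start of Daxx on the other strand. The windows are placed on RefSeq starts, which differ from the GENCODE starts for A530040E14Rik, BC051226 and Bach2os. Capitals mark a match, on either strand, to 1 of 4 searched motifs: the interferon-stimulated response element ISRE (GAAA, any 2 bases, GAAA), the NF-kB site (GGGA, any 2 bases, TTCC), the AP-1 site (TGANTCA) and the site of PU.1, the lineage factor of macrophages (GAGGAAGT).
Gm15987, chr6:128974980-128975279, minus strand: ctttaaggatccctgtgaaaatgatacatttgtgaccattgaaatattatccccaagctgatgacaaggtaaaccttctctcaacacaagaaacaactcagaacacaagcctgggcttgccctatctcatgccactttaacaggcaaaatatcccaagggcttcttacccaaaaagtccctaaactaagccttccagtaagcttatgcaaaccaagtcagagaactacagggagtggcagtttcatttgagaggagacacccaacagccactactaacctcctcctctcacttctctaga
A530040E14Rik, chr1:85105843-85106142, plus strand: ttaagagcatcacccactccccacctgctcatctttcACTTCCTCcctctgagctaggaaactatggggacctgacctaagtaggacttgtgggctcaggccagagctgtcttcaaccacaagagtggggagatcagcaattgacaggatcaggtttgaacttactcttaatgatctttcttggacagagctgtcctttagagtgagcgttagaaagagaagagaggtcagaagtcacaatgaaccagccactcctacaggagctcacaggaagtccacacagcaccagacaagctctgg
BC051226, chr17:33909129-33909428, minus strand: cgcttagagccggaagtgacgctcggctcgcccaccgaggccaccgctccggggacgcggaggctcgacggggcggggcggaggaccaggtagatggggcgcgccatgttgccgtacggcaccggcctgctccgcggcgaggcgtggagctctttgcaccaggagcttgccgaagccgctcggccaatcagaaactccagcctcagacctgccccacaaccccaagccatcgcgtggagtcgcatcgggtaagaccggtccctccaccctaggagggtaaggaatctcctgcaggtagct
Oasl1, chr5:114922990-114923289, plus strand: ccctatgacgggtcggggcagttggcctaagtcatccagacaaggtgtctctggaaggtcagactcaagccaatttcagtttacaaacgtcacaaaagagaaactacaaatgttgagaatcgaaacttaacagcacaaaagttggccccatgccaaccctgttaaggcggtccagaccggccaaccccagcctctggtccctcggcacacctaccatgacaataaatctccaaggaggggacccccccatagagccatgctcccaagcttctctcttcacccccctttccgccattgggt
Bach2os, chr4:32571613-32571912, minus strand: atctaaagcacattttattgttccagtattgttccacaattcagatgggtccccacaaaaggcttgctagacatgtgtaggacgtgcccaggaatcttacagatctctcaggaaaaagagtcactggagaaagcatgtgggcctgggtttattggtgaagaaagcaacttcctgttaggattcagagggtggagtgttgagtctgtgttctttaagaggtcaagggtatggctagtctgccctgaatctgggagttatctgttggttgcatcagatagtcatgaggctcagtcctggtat
Dnmt3aos, chr12:3862195-3862494, minus strand: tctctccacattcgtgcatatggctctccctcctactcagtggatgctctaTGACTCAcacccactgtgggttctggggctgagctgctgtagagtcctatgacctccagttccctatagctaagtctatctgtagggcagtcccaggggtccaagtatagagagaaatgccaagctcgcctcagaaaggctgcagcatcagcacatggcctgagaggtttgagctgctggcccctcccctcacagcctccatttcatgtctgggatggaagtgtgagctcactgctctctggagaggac
F630028O10Rik, chrX:96239676-96239975, plus strand: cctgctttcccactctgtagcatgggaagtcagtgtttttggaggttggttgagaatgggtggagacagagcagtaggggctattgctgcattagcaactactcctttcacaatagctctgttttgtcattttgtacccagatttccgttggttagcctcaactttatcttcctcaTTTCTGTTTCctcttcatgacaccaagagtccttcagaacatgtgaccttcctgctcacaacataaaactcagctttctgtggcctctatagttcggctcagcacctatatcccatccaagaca

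The A530040E14Rik window held a PU.1 match 213 bases before its RefSeq start, and the Dnmt3aos window an AP-1 match 199 bases before its own. The F630028O10Rik window held an ISRE match 74 bases before its RefSeq start. No 2 matches overlapped in these windows. The windows of Gm15987, BC051226, Oasl1 and Bach2os held none of these letters. RefSeq windows were found for 51 of the 100 antisense RNAs, 62 windows in all. Over these, 6.45% held the ISRE letters, against 3.44% of all 32851 windows in the table, 1.61% against 1.47% the NF-kB letters, 8.06% against 7.81% the AP-1 letters, and 9.68% against 3.20% the PU.1 letters.

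The antisense RNAs were a minor share of the RNA. They held 0.0373 ± 0.00182% of the counts in CD36 KO oxLDL, 0.0463 ± 0.00294% in CD36 KO control, 0.0336 ± 0.00226% in WT oxLDL and 0.0412 ± 0.000611% in WT control (SD, n = 3 each). On the TMM scale they summed to 363 ± 8.08 CPM in CD36 KO oxLDL and 401 ± 24.7 in CD36 KO control. The sums were 415 ± 12.1 CPM in WT oxLDL and 395 ± 7.21 in WT control (SD, n = 3 each). The WT groups were thus ordered the other way on this scale. The 8 most abundant, 4930430E12Rik, Brip1os, Gm16586, Zeb2os, Gm15564, Rab10os, Inafm2 and F630028O10Rik, held 54.1% of the counts of the antisense RNAs. The most abundant, 4930430E12Rik, averaged 78.4 ± 12.7 CPM in CD36 KO oxLDL, 59.5 ± 6.85 in CD36 KO control, 74.8 ± 24.9 in WT oxLDL and 63.0 ± 0.881 in WT control (SD, n = 3 each). Brip1os, which starts back to back with the DNA helicase gene Brip1, averaged 43.4 ± 2.36, 39.4 ± 3.33, 64.3 ± 7.70 and 52.0 ± 2.02 CPM in the same groups (SD, n = 3 each). Per length, as RPKM (CPM divided by gene length), the median antisense RNA stood at 26.6% of its coding partner over the 78 pairs. In 22 pairs the antisense RNA was the higher of the pair, and in 26 it was under 10% of its partner.

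The level rule itself favours RNAs that are high in at least 1 group. In the unscaled CPM that the rule uses, 44 of the 100 reached the threshold in all 4 groups, 17 in both control groups only, 12 in CD36 KO control only and 5 in both oxLDL groups only. RNAs that passed through a single condition had to differ between conditions, so the counts of calls below describe the list and support nothing further. The 3 RNAs just inside the threshold were Gm20703 at 1.03, BC018473 at 1.055 and Gm10501 at 1.065 CPM in their highest group, and the 3 just outside it were Gm15445 at 0.995, Gm16008 at 0.9822 and B230398E01Rik at 0.9397 CPM.

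The first comparison asked how the antisense RNAs responded to oxLDL in each genotype. The response ran in both directions. In CD36 KO macrophages 12 rose and 29 fell, 41 in all, with a median log2 fold change over the 100 of -0.45 (edgeR quasi-likelihood test, Benjamini-Hochberg adjusted p under 0.05 over all 16281 genes tested), where 27.4% of all genes were called, 11.6% higher and 15.7% lower. Of the genes that passed the same level rule, whatever their biotype, 29.3% were called there and 39.7% in WT. In WT macrophages 15 rose and 24 fell, 39 in all, with a median of -0.30; 36.7% of all genes were called there, 18.1% higher and 18.6% lower, a share close to that of the antisense RNAs. Over the 178 lincRNAs, 51.7% were called in CD36 KO and 54.5% in WT. By a rule that depends less on the highest group, 76 antisense RNAs averaged at least 1 CPM over all 12 libraries, and 38.2% of them were called in CD36 KO and 39.5% in WT. RNAs high under 1 treatment only, such as Gm16685, still passed it, so these shares also describe the list only. Leaving out WT oxLDL replicate 1, which also changes the shared estimate of the spread, gave 15 higher and 44 lower in CD36 KO. In WT it gave 17 higher and 34 lower. For fits with 1 library left out, shares over all genes are not given here, so their counts describe the list only. Other libraries moved the counts the other way: without CD36 KO control replicate 1 or 3, or CD36 KO oxLDL replicate 2 or 3, 16 to 19 were lower in CD36 KO, and without WT control replicate 2 or 3, or WT oxLDL replicate 3, 14 were lower in WT. Between the genotypes, 10 RNAs rose in both and 19 fell in both, where 10.2% of all genes tested rose and 12.1% fell in both. Another 2 rose and 10 fell in CD36 KO only, 5 rose and 5 fell in WT only, and none was called in opposite directions. The genotypes used separate control libraries, and a call in only 1 genotype is not a test of a difference, which is given further on.

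**Figure D1:**
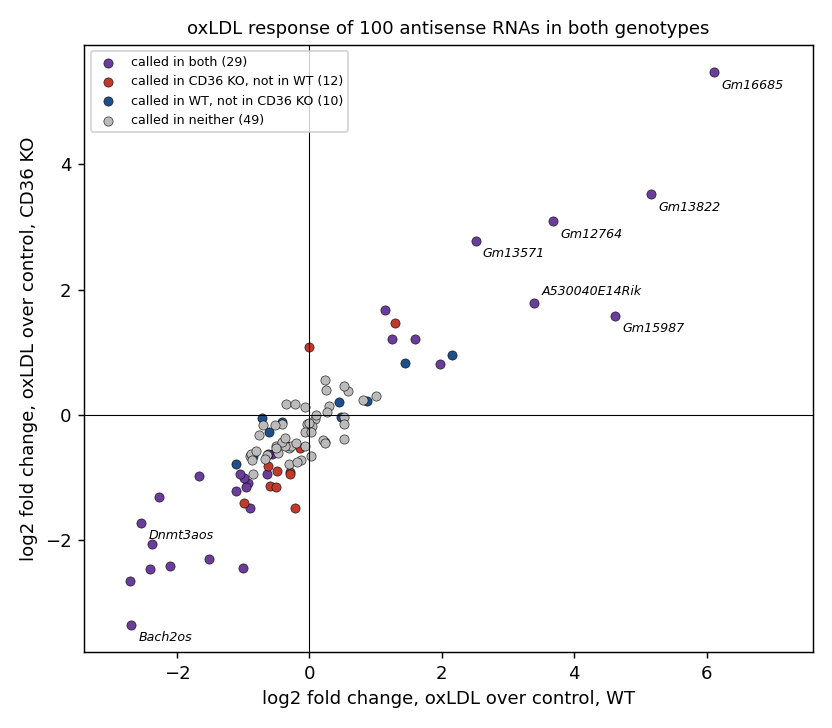
log2 fold change (oxLDL over control) of the 100 antisense RNAs in CD36 KO (vertical axis) against WT (horizontal axis); each point is an RNA, coloured by the genotypes in which it was called. The 29 RNAs called in both genotypes lie in the upper right or lower left, with Gm16685 at 5.47 and 6.11 the farthest out and Gm15987 (1.58 and 4.62) the farthest below the line of equal response.

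The largest rises were those of Gm16685 and Gm13822 in both genotypes, followed by Gm12764 in CD36 KO and Gm15987 in WT. Gm16685 (ENSMUSG00000097804, chr3:7612705-7690001, plus strand), an RNA studied in mouse macrophages for its induction by inflammatory stimuli, starts 1055 bases inside Il7, the gene of a lymphocyte growth cytokine, and runs against it. It had 7.56, 6.80 and 6.94 CPM in CD36 KO oxLDL and 0.164, 0.0959 and 0.209 in CD36 KO control. Gm16685 had 4.16, 5.97 and 6.19 CPM in WT oxLDL and 0.0849, 0.0926 and 0.0493 in WT control. The oxLDL libraries of both genotypes lay far above the control libraries, with a log2 fold change of 5.47 in CD36 KO (SE 0.27, edgeR adjusted p = 9.16e-08) and 6.11 in WT (SE 0.30, adjusted p = 5.08e-08). Il7 itself rose too, with log2 fold changes of 0.93 in CD36 KO (SE 0.23, adjusted p = 0.0118) and 0.69 in WT (SE 0.23, adjusted p = 0.0363). Of the exonic bases of Gm16685, 6.595% lie in exons of Il7.

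Gm13822 (ENSMUSG00000087477, chr5:114917318-114923277, minus strand) is the RNA that leaves the Oasl1 window shown above in the other direction. Oasl1 is an interferon-induced member of the oligoadenylate synthetase family. Gm13822 had 1.75, 1.86 and 2.97 CPM in CD36 KO oxLDL and 0.117, 0.216 and 0.233 in CD36 KO control. Gm13822 had 8.06, 2.61 and 2.9 CPM in WT oxLDL and 0.106, 0.208 and 0.0493 in WT control. Its log2 fold change was 3.52 in CD36 KO (SE 0.56, edgeR adjusted p = 0.000617) and 5.16 in WT (SE 0.59, adjusted p = 3.53e-05), or 4.48 in WT without replicate 1, the highest oxLDL library. Oasl1 rose by 4.20 and 4.98 in CD36 KO and WT (SE 0.28 and 0.29, adjusted p = 6.98e-07 and 1.64e-07). Gm13822 stood at 6.28% of the Oasl1 level per length. Exons of Oasl1 hold 10.98% of the exonic bases of Gm13822.

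A530040E14Rik (chr1:85105946-85114035, plus strand) overlaps the coding gene C130026I21Rik and carries the PU.1 letters in its promoter window. It had 1.71, 3.0 and 4.64 CPM in CD36 KO oxLDL and 1.08, 0.863 and 0.744 in CD36 KO control. A530040E14Rik had 7.75, 4.73 and 4.39 CPM in WT oxLDL and 0.530, 0.556 and 0.493 in WT control. The groups did not overlap in either genotype, and the log2 fold change was 1.79 in CD36 KO (SE 0.35, edgeR adjusted p = 0.0028) and 3.40 in WT (SE 0.38, adjusted p = 2.81e-05). C130026I21Rik rose by 0.97 in CD36 KO (SE 0.21, edgeR adjusted p = 0.00419) and 1.80 in WT (SE 0.21, adjusted p = 4.18e-05). Its exons hold 14.77% of the exonic bases of A530040E14Rik.

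For another 3 RNAs the coding partner had no call in the fit of all libraries. For Ly75 in both genotypes and Lsm14a in WT this rested on WT oxLDL replicate 1. Lsm14a in CD36 KO had no call without that library either (edgeR adjusted p = 0.208). Gm12764 (chr7:34388665-34394779, plus strand) runs against Lsm14a, an RNA-binding protein of processing bodies, and had 1.32, 1.57 and 0.998 CPM in CD36 KO oxLDL and 0.141, 0.168 and 0.140 in CD36 KO control. Gm12764 had 1.48, 2.54 and 2.76 CPM in WT oxLDL and 0.212, 0.208 and 0.0986 in WT control. It rose by 3.09 in CD36 KO (SE 0.36, edgeR adjusted p = 5.43e-05) and 3.68 in WT (SE 0.34, adjusted p = 6.63e-06). Lsm14a had log2 fold changes of 0.10 and 0.14 (SE 0.21 each, adjusted p = 0.787 and 0.628), and rose by 0.41 in WT without WT oxLDL replicate 1 (SE 0.07, adjusted p = 0.000282); 55.75% of the exonic bases of Gm12764 lie in exons of Lsm14a. Gm13571 (chr2:60338188-60371234, plus strand) lies against Ly75, an endocytic receptor of antigen-presenting cells. Its levels were 6.86, 6.10 and 7.89 CPM in CD36 KO oxLDL and 1.15, 0.767 and 1.12 in CD36 KO control. Gm13571 had 8.36, 5.03 and 4.61 CPM in WT oxLDL and 1.06, 0.973 and 1.11 in WT control. Its log2 fold changes were 2.78 in CD36 KO and 2.51 in WT (SE 0.25 each, adjusted p = 8.99e-06 and 1.35e-05), against 1.31 and 0.80 for Ly75 (SE 0.45 and 0.44, adjusted p = 0.0501 and 0.179), which was at 16.4 CPM in WT oxLDL replicate 1 and at 80.7 and 95.5 CPM in the other two. Without that library Ly75 rose by 1.31 in CD36 KO (SE 0.10, adjusted p = 3.12e-07) and 1.28 in WT (SE 0.11, adjusted p = 7.95e-07). Peak1os, antisense to the scaffold pseudokinase gene Peak1, averaged 1.24 ± 0.137 CPM in CD36 KO oxLDL and 0.700 ± 0.166 in CD36 KO control. Peak1os averaged 2.66 ± 0.795 CPM in WT oxLDL and 0.677 ± 0.0759 in WT control (SD, n = 3 each). It rose by 0.81 in CD36 KO (SE 0.27, adjusted p = 0.0441) and 1.98 in WT (SE 0.26, adjusted p = 0.00013). The call in CD36 KO was lost when any 1 of 10 libraries was left out, the exceptions being WT oxLDL replicates 1 and 3. Peak1 had log2 fold changes of -0.41 in CD36 KO and -0.12 in WT (edgeR adjusted p = 0.426 and 0.8).

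BC051226 starts back to back with Daxx, a chaperone of histone H3.3, and shares no exonic base with another gene. It had 2.50, 3.21 and 3.39 CPM in CD36 KO oxLDL and 1.60, 1.58 and 1.53 in CD36 KO control. BC051226 had 11.7, 4.98 and 4.34 CPM in WT oxLDL and 1.72, 1.2 and 1.77 in WT control. In WT it rose by 2.15 (SE 0.35, edgeR adjusted p = 0.000514), or by 1.59 without WT oxLDL replicate 1. In CD36 KO its log2 fold change of 0.95 did not pass the test (SE 0.34, adjusted p = 0.0634). Daxx rose in both, by 1.91 in CD36 KO (SE 0.19, adjusted p = 1.43e-05) and 2.49 in WT (SE 0.19, adjusted p = 1.35e-06). In the same arrangement, 4930599N23Rik beside Parp12, an interferon-inducible ADP-ribosyltransferase, had log2 fold changes of 0.22 in CD36 KO and 0.87 in WT, of which the second was called but not without WT control replicate 1, against 2.18 and 2.71 for Parp12.

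**Figure D2:**
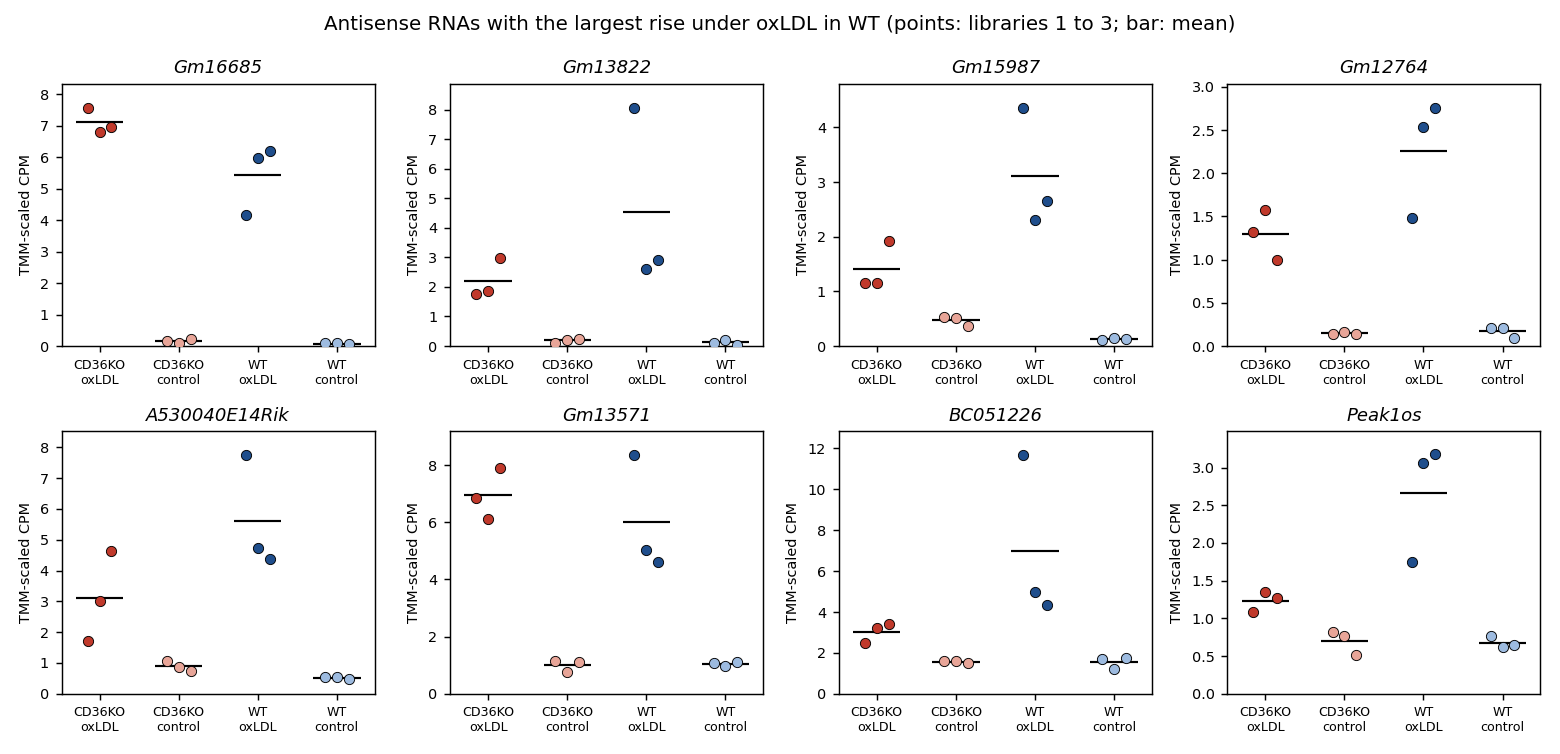
TMM-scaled CPM of the 8 antisense RNAs with the largest rise under oxLDL in WT; each point is a library, bars are means of 3 libraries, and each panel has its own axis from 0. The oxLDL libraries of both genotypes lie above the control libraries in every panel, and WT oxLDL replicate 1, the leftmost point of its group, is the highest library for Gm13822, Gm15987, A530040E14Rik, Gm13571 and BC051226.

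The largest falls included antisense RNAs of chromatin and transcription regulators that fell together with their coding genes. Bach2os (ENSMUSG00000086150, chr4:32559680-32571708, minus strand), antisense to the transcriptional repressor gene Bach2, had 0.492, 0.162 and 0.275 CPM in CD36 KO oxLDL and 3.59, 3.33 and 2.93 in CD36 KO control. Bach2os had 0.604, 0.427 and 0.332 CPM in WT oxLDL and 2.52, 3.10 and 3.11 in WT control. Its log2 fold change was -3.35 in CD36 KO (SE 0.32, edgeR adjusted p = 1.2e-05) and -2.69 in WT (SE 0.31, adjusted p = 3.81e-05), and that of Bach2 was -1.38 and -1.82 (SE 0.22 and 0.23, adjusted p = 0.00068 and 8.12e-05). Exons of Bach2 hold 24.6% of the exonic bases of Bach2os. Bach2os averaged 3.29 ± 0.334 CPM in CD36 KO control and 2.91 ± 0.335 in WT control (SD, n = 3 each). This difference did not pass the test (log2 fold change 0.18, SE 0.26, edgeR adjusted p = 0.805). Bach2 is also abundant in B cells, whose markers were higher in CD36 KO than in WT libraries. The part of B cells in the values of Bach2 and Bach2os was not tested.

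Dnmt3aos (ENSMUSG00000073242, chr12:3859293-3862244, minus strand), inside the gene of the de novo DNA methyltransferase Dnmt3a, had 4.79, 4.54 and 3.34 CPM in CD36 KO oxLDL and 14.0, 14.2 and 13.9 in CD36 KO control. Dnmt3aos had 3.29, 3.33 and 2.27 CPM in WT oxLDL and 17.0, 17.4 and 17.2 in WT control. The control libraries were within narrow ranges and all above the oxLDL libraries. The log2 fold change was -1.73 in CD36 KO (SE 0.17, edgeR adjusted p = 1.69e-05) and -2.54 in WT (SE 0.18, adjusted p = 7.32e-07). Dnmt3a fell alongside, with log2 fold changes of -1.51 in CD36 KO and -2.39 in WT (SE 0.14 each, adjusted p = 8.38e-06 and 1.88e-07), and 9.603% of the exonic bases of Dnmt3aos lie in exons of Dnmt3a.

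F630028O10Rik (chrX:96239926-96243636, plus strand), among the 8 most abundant antisense RNAs, overlaps no coding gene. It had 5.32, 3.56 and 2.45 CPM in CD36 KO oxLDL and 21.3, 19.7 and 19.6 in CD36 KO control. F630028O10Rik had 3.59, 3.70 and 2.32 CPM in WT oxLDL and 13.7, 14.9 and 13.0 in WT control. Its log2 fold changes were -2.41 in CD36 KO (SE 0.26, edgeR adjusted p = 3.03e-05) and -2.11 in WT (SE 0.26, adjusted p = 6.26e-05). Gm26947, 2810455O05Rik and Gm20703 also fell in both genotypes. Their log2 fold changes were -2.46, -2.07 and -2.65 in CD36 KO (SE 0.33, 0.21 and 0.43, adjusted p = 0.000168, 2.11e-05 and 0.000752), and -2.41, -2.37 and -2.71 in WT (SE 0.33, 0.21 and 0.45, adjusted p = 0.000144, 3.84e-06 and 0.000649). Gm20703 and 2810455O05Rik are typed lincRNA in GENCODE M21.

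Gm13091 and Tnfsf13os were among the 6 largest falls in CD36 KO. Gm13091 (chr4:150566869-150568544, minus strand), antisense to the corepressor gene Rere, had 0.433, 0.270 and 0.374 CPM in CD36 KO oxLDL and 2.04, 1.85 and 2.05 in CD36 KO control. Gm13091 had 0.705, 0.978 and 1.24 CPM in WT oxLDL and 1.80, 1.95 and 2.14 in WT control. Its log2 fold change was -2.44 in CD36 KO (SE 0.24, edgeR adjusted p = 1.65e-05) and -1.0 in WT (SE 0.22, adjusted p = 0.00423), and Rere fell in CD36 KO with -0.83 (SE 0.25, adjusted p = 0.0287). Tnfsf13os (chr11:69682138-69691141, plus strand) starts back to back with Senp3, a SUMO protease gene, and runs against the locus of TWEAK and APRIL, both TNF family cytokines. It had 0.295, 0.621 and 0.399 CPM in CD36 KO oxLDL and 2.54, 1.85 and 2.07 in CD36 KO control. Tnfsf13os had 1.64, 0.605 and 0.691 CPM in WT oxLDL and 2.57, 2.76 and 2.86 in WT control. Its log2 fold change was -2.31 in CD36 KO (SE 0.38, adjusted p = 0.000776) and -1.52 in WT (SE 0.35, adjusted p = 0.00548), or -2.06 in WT without replicate 1. Its partner, listed as Tnfsf12Tnfsf13, had -1.04 and -0.99 (SE 0.20 each, edgeR adjusted p = 0.00227 and 0.00226). Exons of this partner hold 22.81% of the exonic bases of Tnfsf13os. Gm15717, for which no GENCODE entry was found, completed the 6 largest falls in WT with -2.27 (SE 0.49, adjusted p = 0.00357).

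**Figure D3:**
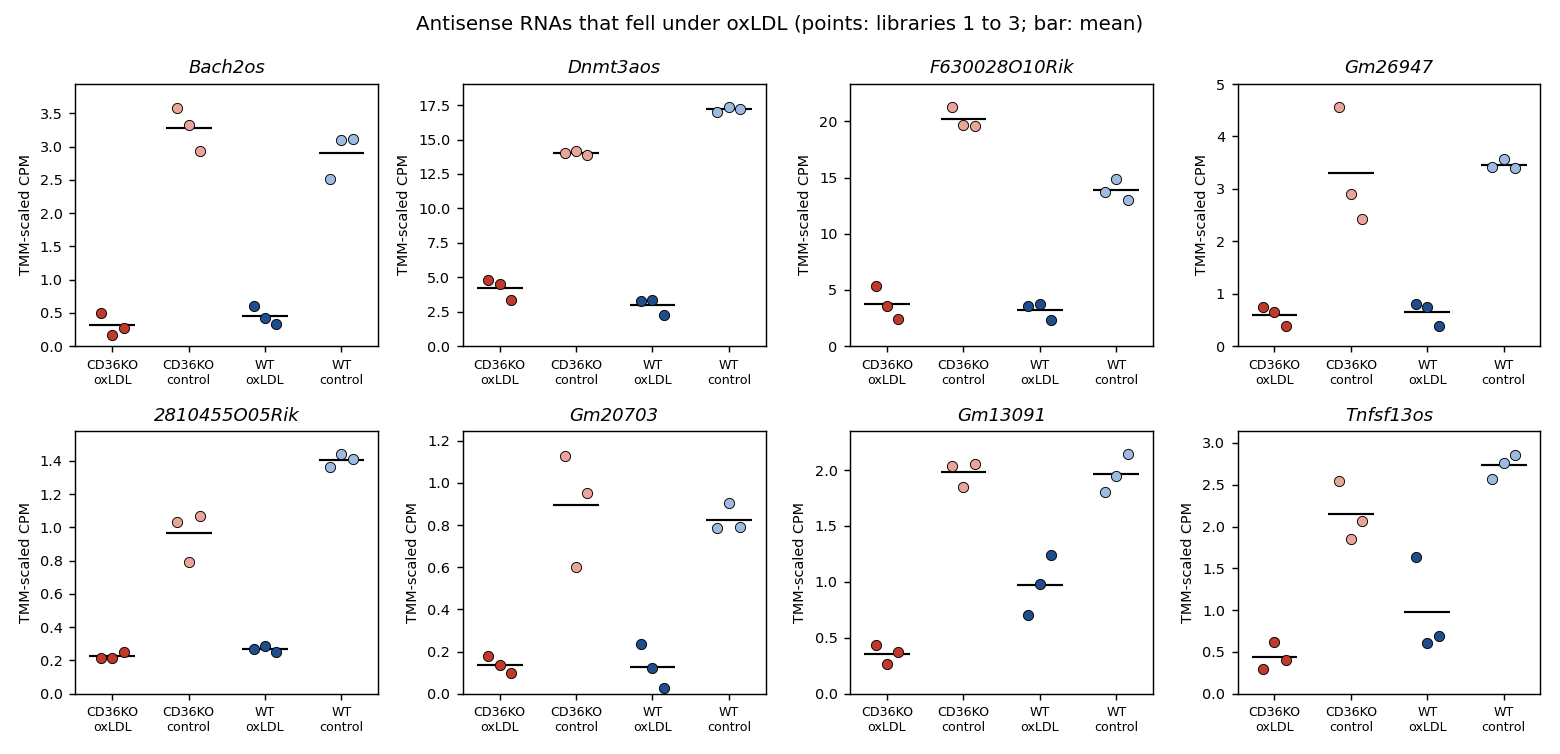
TMM-scaled CPM of 8 antisense RNAs that fell under oxLDL; each point is a library, bars are means of 3 libraries, and each panel has its own axis from 0. In every panel and in both genotypes the 3 oxLDL libraries lie below the 3 control libraries; for Dnmt3aos they span 3.34 to 4.79 CPM in CD36 KO oxLDL, against 13.9 to 14.2 in CD36 KO control.

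Antisense RNA and coding gene could be tested together in 71 pairs. In CD36 KO, both rose in 5 pairs and both fell in 7; the antisense RNA rose and its partner fell in 1, the reverse held in 2, the antisense RNA alone was called in 16, its partner alone in 13 and neither in 27. In WT, both rose in 8 pairs and both fell in 5, with 1 and 2 pairs in opposite directions, 12 with a call for the antisense RNA alone, 17 for the partner alone and 26 with none. Over the 71 pairs in CD36 KO, 11 antisense RNAs rose and 20 fell, and 13 partners rose and 15 fell. In WT, 14 antisense RNAs rose and 14 fell, and 20 partners rose and 13 fell. Calls were thus frequent on both sides, and whether joint calls exceeded what such frequencies give was not tested. The pair that moved in opposite directions in both genotypes with the antisense RNA up was Gm15987 and Clec2g. Gm2415 fell while its overlapping gene Itga9, an integrin subunit, rose, with log2 fold changes of -1.01 and 0.66 in CD36 KO and -0.99 and 1.34 in WT. Gm2415 shares no exonic base with Itga9. Ctdspl, whose start lies 2 bases from that of Gm2415, fell with -0.78 in CD36 KO (SE 0.16, edgeR adjusted p = 0.00297) and -1.0 in WT (SE 0.16, adjusted p = 0.000486).

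Arrangement at the start gave no uniform pattern of joint calls. Of the 22 tested back-to-back pairs, 1 fell together in CD36 KO (Tnfsf13os and Senp3) and 2 rose together in WT (4930599N23Rik and Parp12, BC051226 and Daxx). Of the 16 tested pairs whose antisense RNA starts just inside the coding gene, 2 rose together in CD36 KO and 2 in WT (Gm13822 with Oasl1, and Gm11131 with the MHC class I gene H2-Q4, in both genotypes), while 1 fell together in CD36 KO (Gm2415 and Ctdspl) and 2 in WT (Gm2415 with Ctdspl, and Junos with Jun). Jun encodes an AP-1 subunit. Junos averaged 1.66 ± 0.310 CPM in CD36 KO oxLDL and 1.99 ± 0.430 in CD36 KO control. Junos averaged 1.59 ± 0.217 CPM in WT oxLDL and 2.45 ± 0.129 in WT control (SD, n = 3 each). Its call in WT (log2 fold change -0.61, SE 0.21, edgeR adjusted p = 0.0384) was lost without WT oxLDL replicate 1, where it was -0.49 (adjusted p = 0.0704). It was also lost without any 1 of 7 other libraries, the other 5 of WT, CD36 KO control replicate 3 and CD36 KO oxLDL replicate 2. MHC class I genes have near-identical copies, so the values of H2-Q4 and of RNAs that share its exons are uncertain.

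**Figure D4:**
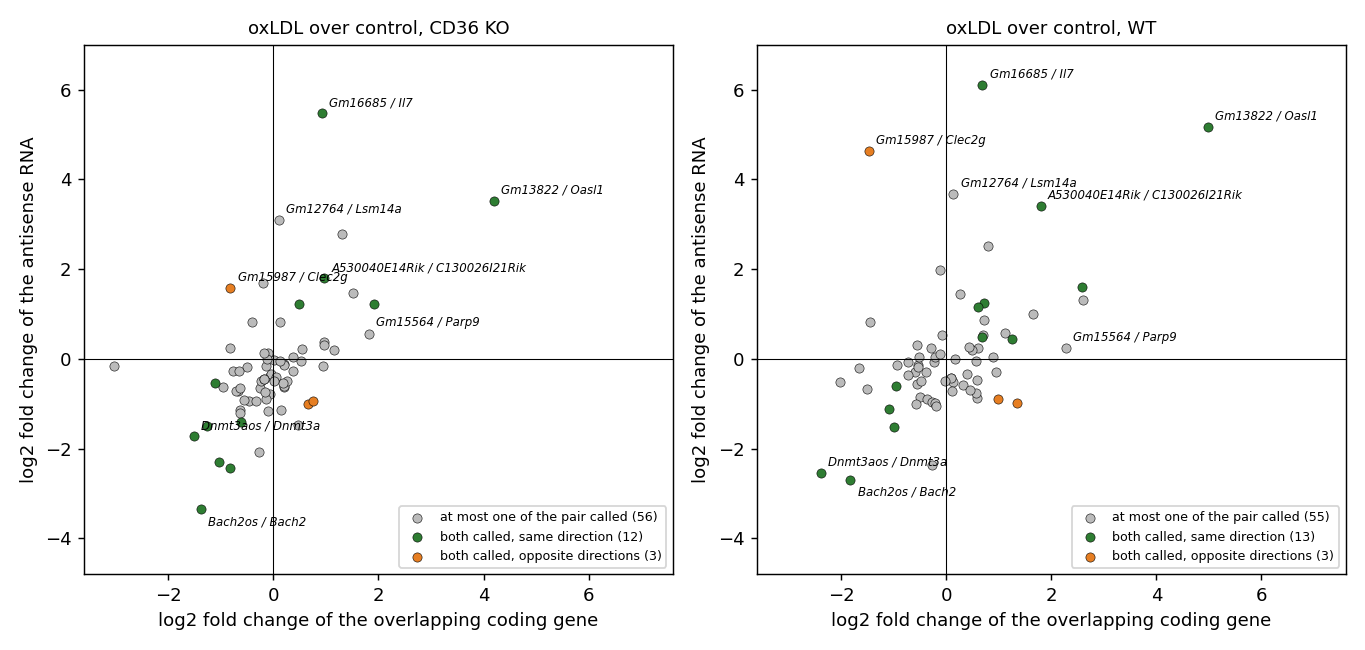
log2 fold change (oxLDL over control) of the antisense RNA (vertical axis) against that of its overlapping coding gene (horizontal axis) in CD36 KO (left) and WT (right), for the 71 pairs with both tested; colours show whether both were called and in which directions. Pairs called in the same direction (12 in CD36 KO, 13 in WT) run from Bach2os and Dnmt3aos at the lower left to Gm13822 with Oasl1 at the upper right, and Gm15987 with Clec2g lies at the upper left.

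Whether the response to oxLDL itself differed between the genotypes was asked with an interaction term. Gm15987 was the only antisense RNA called (0.669% of all genes tested were called, and 0.786% of those that passed the level rule), with 10 of the 100 at an unadjusted p under 0.05 (edgeR), against 10.3% of all genes. DESeq2 called 1 higher and 3 lower, against 1.17% and 2.13% of the genes it gave an adjusted p. Gm15987 (ENSMUSG00000085786, chr6:128951204-128975029, minus strand) lies against Clec2g, a C-type lectin-like gene of the natural killer gene complex, with which it shares no exonic base. It had 1.16, 1.16 and 1.92 CPM in CD36 KO oxLDL and 0.540, 0.504 and 0.372 in CD36 KO control. Gm15987 had 4.36, 2.31 and 2.65 CPM in WT oxLDL and 0.106, 0.139 and 0.123 in WT control. The CD36 KO libraries were above WT control without oxLDL and below WT oxLDL with it, with log2 fold changes (CD36 KO over WT) of -1.13 under oxLDL (SE 0.28, edgeR adjusted p = 0.0151) and 1.92 in control medium (SE 0.41, adjusted p = 0.0113). The first of these calls was lost without CD36 KO oxLDL replicate 1 or 2, and the second without WT control replicate 3. oxLDL raised it by 1.58 in CD36 KO (SE 0.31, edgeR adjusted p = 0.00293) and by 4.62 in WT (SE 0.37, adjusted p = 2.02e-06), a difference of -3.05 (SE 0.50, adjusted p = 0.0195). Without WT oxLDL replicate 1 the difference was -2.74 (adjusted p = 0.00268). Over the fits with 1 library left out the adjusted p ran from 0.00268 to 0.0836, and the call was lost without any of WT control replicates 1 to 3, CD36 KO control replicates 1 and 2, or CD36 KO oxLDL replicates 1 and 2. Clec2g fell under oxLDL, with log2 fold changes of -0.82 in CD36 KO (SE 0.20, adjusted p = 0.0105) and -1.47 in WT (SE 0.22, adjusted p = 0.000269).

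The genotype was compared next, within each treatment. Under oxLDL, 11 antisense RNAs were higher and 13 lower in CD36 KO than in WT, with a median log2 fold change of -0.01 (21.6% of all genes tested were called, 11.7% higher and 9.86% lower, and 22.9% of those that passed the same level rule). In control medium, 9 were higher and 2 lower, with a median of 0.14 (11.2% of all genes tested, 8.78% higher and 2.42% lower, and 11.3% under the level rule). Both shares were close to those over all genes. Under oxLDL, the 76 RNAs that averaged at least 1 CPM over all libraries gave 4 higher and 13 lower, and leaving out 1 library gave 6 to 16 higher and 7 to 15 lower, with 6 and 8 without CD36 KO oxLDL replicate 1 and 7 lower without CD36 KO oxLDL replicate 2. The sign of the median under oxLDL depended on the scaling: it was 0.10 with upper-quartile factors and -0.05 with DESeq2. Without WT oxLDL replicate 1, which also changes the shared estimate of the spread, 23 were higher and 8 lower in control medium, and 4 higher ones were left without WT control replicate 3. Under both treatments, 6 RNAs were higher in CD36 KO, and 2, Gm15564 and Gm15726, were lower under both.

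BC018473 (ENSMUSG00000056032, chr11:116752167-116759373, plus strand), which overlaps no coding gene, was detected in CD36 KO libraries and had 0 counts in every WT library. It had 0.946, 1.19 and 0.948 CPM in CD36 KO oxLDL and 0.352, 0.504 and 0.581 in CD36 KO control. With 130 counts in CD36 KO oxLDL and 61 in CD36 KO control, and 0 in both WT groups, it was at least 41.4-fold higher in CD36 KO under oxLDL and at least 20.9-fold higher in control medium, against a floor of 3 counts over the WT group (edgeR adjusted p = 0.000233 and 0.00103). With oxLDL it rose in CD36 KO by 1.09 (SE 0.28, edgeR adjusted p = 0.0232), a call lost without any of CD36 KO control replicates 1 and 2 or CD36 KO oxLDL replicates 1 to 3. Gm20478 (ENSMUSG00000092474, chr17:36167982-36171805, plus strand), in the MHC region, starts 555 bases inside Gm8909. It had 1.99, 1.92 and 2.45 CPM in CD36 KO oxLDL and 0.986, 0.408 and 0.907 in CD36 KO control. Gm20478 had 0.134, 0.0178 and 0 CPM in WT oxLDL and 0.0212, 0 and 0.0246 in WT control. That is 270 counts in CD36 KO against 5 in WT under oxLDL, a ratio of 51.6 (95% interval 21.8 to 160), and 98 against 2 in control medium, a ratio of 50.4 (13.6 to 422); the intervals are exact and cover counting error only. With oxLDL it rose in CD36 KO by 1.46 (SE 0.41, edgeR adjusted p = 0.0208), a call lost without CD36 KO control replicate 2 or CD36 KO oxLDL replicate 3. Gm8909 did not pass either genotype test (log2 fold change -1.38 under oxLDL, SE 0.75, edgeR adjusted p = 0.215, and -0.28 in control medium, SE 0.94, adjusted p = 0.927).

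A930015D03Rik, also higher in CD36 KO, lies in the MHC region. The RNA (chr17:35994453-36038435, plus strand) had 3.68, 3.54 and 5.09 CPM in CD36 KO oxLDL and 3.41, 3.45 and 3.12 in CD36 KO control. A930015D03Rik had 1.51, 0.551 and 0.663 CPM in WT oxLDL and 0.382, 0.556 and 0.370 in WT control. It was higher by 2.22 on the log2 scale under oxLDL (SE 0.33, edgeR adjusted p = 0.00111) and 2.92 in control medium (SE 0.35, adjusted p = 0.000596). In all, 90.28% of its exonic bases lie in exons of other genes. None of these bases lies in exons of its longest coding overlap, the nonclassical MHC class I gene H2-T24. The genes that hold them are not compared here. H2-T24 differed by 0.33 under oxLDL (SE 0.29, adjusted p = 0.44, or -0.01 without WT oxLDL replicate 1) and 1.03 in control medium (SE 0.29, adjusted p = 0.0428). Reads of MHC class I genes and their near-identical copies could be split between genes, so these values are uncertain. Dhx58os, named for the RNA sensor gene Dhx58, averaged 0.912 ± 0.0540 CPM in CD36 KO oxLDL and 1.02 ± 0.379 in CD36 KO control. Dhx58os averaged 0.291 ± 0.0210 CPM in WT oxLDL and 0.411 ± 0.174 in WT control (SD, n = 3 each). CD36 KO differed from WT by 1.65 under oxLDL (SE 0.36, adjusted p = 0.00785) and 1.29 in control medium (SE 0.33, adjusted p = 0.0282). The second call was lost without replicate 2 or 3 of either control group.

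Gm15726 and Gm15564 were lower in CD36 KO. Gm15726 (chrX:169979047-169985232, minus strand), antisense to the microtubule-associated ubiquitin ligase gene Mid1, had 1.34, 1.08 and 0.824 CPM in CD36 KO oxLDL and 0.376, 0.384 and 0.256 in CD36 KO control. Gm15726 had 1.91, 4.05 and 3.87 CPM in WT oxLDL and 1.72, 1.23 and 1.5 in WT control. The groups did not overlap within a treatment, with log2 fold changes (CD36 KO over WT) of -1.60 under oxLDL (SE 0.30, edgeR adjusted p = 0.00356) and -2.12 in control medium (SE 0.34, adjusted p = 0.00271). It also rose with oxLDL, by 1.68 in CD36 KO (SE 0.35, adjusted p = 0.00371) and 1.15 in WT (SE 0.29, adjusted p = 0.00921). Mid1 was lower in CD36 KO under oxLDL (-1.47, SE 0.21, edgeR adjusted p = 0.000958). It had -0.67 in control medium (SE 0.21, adjusted p = 0.0662, or 0.00505 without WT oxLDL replicate 1). Exons of Mid1 hold 28.29% of the exonic bases of Gm15726. Gm15564 (chr16:35966752-35983230, minus strand) lies against Parp9, an interferon-inducible ADP-ribosyltransferase, and shares no exonic base with another gene. It had 12.8, 14.3 and 9.36 CPM in CD36 KO oxLDL and 5.90, 12.6 and 6.21 in CD36 KO control. Gm15564 had 24.4, 28.6 and 25.3 CPM in WT oxLDL and 24.5, 20.9 and 20.8 in WT control. Its log2 fold change (CD36 KO over WT) was -1.10 under oxLDL (SE 0.27, adjusted p = 0.0134) and -1.42 in control medium (SE 0.27, adjusted p = 0.00637). Parp9 differed by -0.45 under oxLDL (SE 0.15, adjusted p = 0.0471) and 0.01 in control medium (SE 0.15, adjusted p = 0.982). With oxLDL it rose in both genotypes by 1.82 and 2.28 (SE 0.15 each, adjusted p = 3.65e-06 and 4.56e-07), where Gm15564 had 0.56 and 0.24 there (SE 0.27 and 0.26, adjusted p = 0.154 and 0.501).

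Plxna4os1, which lies inside the semaphorin receptor gene Plxna4 and shares no exonic base with it, fell under oxLDL in CD36 KO. It had 0.867, 1.43 and 1.42 CPM in CD36 KO oxLDL and 3.26, 3.53 and 3.58 in CD36 KO control. Plxna4os1 had 5.74, 3.20 and 3.51 CPM in WT oxLDL and 5.09, 4.77 and 4.41 in WT control. The oxLDL fold change was -1.49 in CD36 KO (SE 0.25, edgeR adjusted p = 0.000994) and -0.21 in WT (SE 0.24, adjusted p = 0.515), a difference of -1.28 that did not pass the interaction test (SE 0.34, adjusted p = 0.157). Under oxLDL the RNA was lower in CD36 KO than in WT (log2 fold change -1.74, SE 0.25, adjusted p = 0.00102). Plxna4 fell in both genotypes, with -1.27 in CD36 KO and -1.65 in WT (SE 0.25 each, adjusted p = 0.00264 and 0.000354). Gm13091 and BC051226 were the other 2 of the 4 lowest under oxLDL, at -1.43 (SE 0.25, adjusted p = 0.0026) and -1.2 (SE 0.33, adjusted p = 0.0242), the second of which was -0.64 without WT oxLDL replicate 1 and lost its call without CD36 KO oxLDL replicate 1 or 2.

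**Figure D5:**
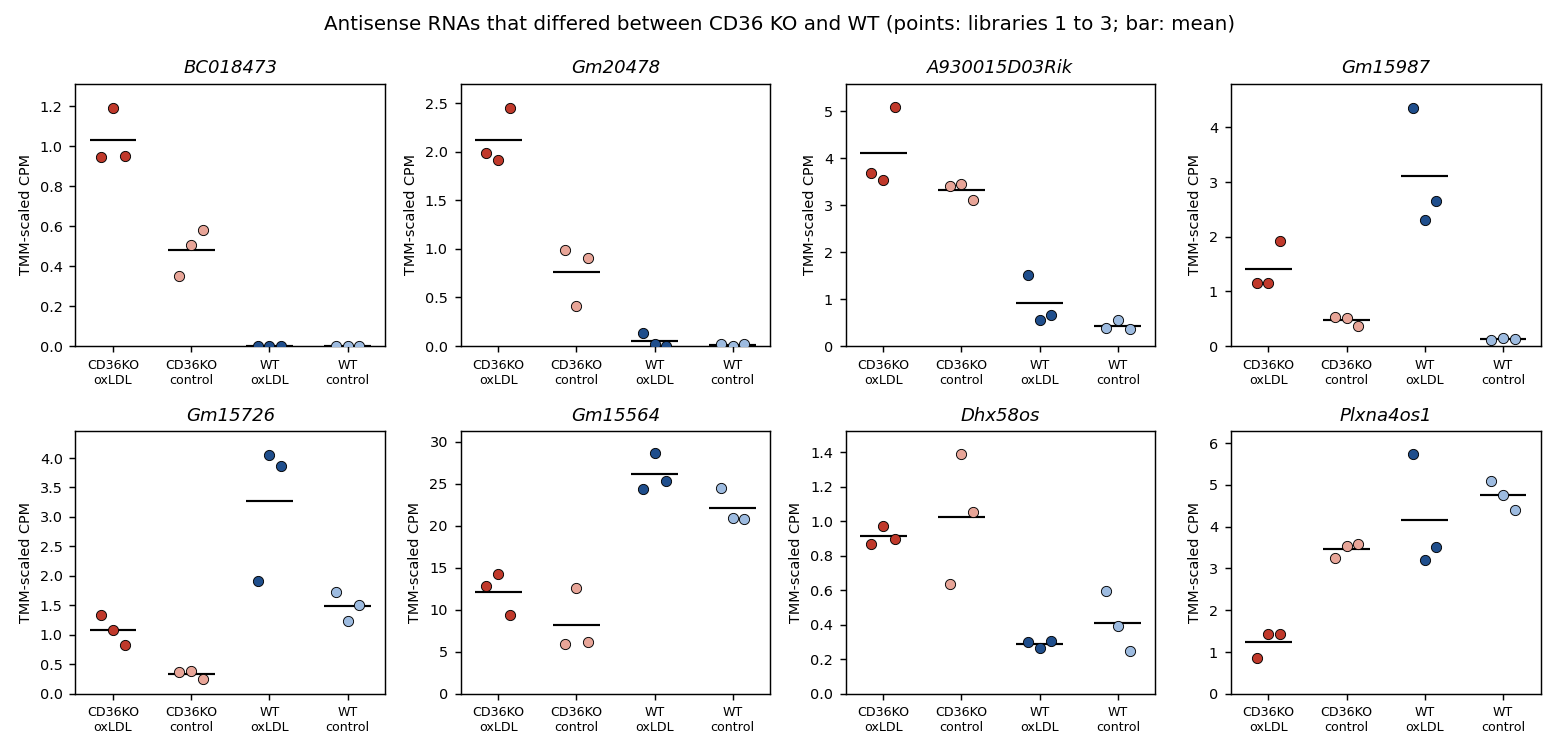
TMM-scaled CPM of 8 antisense RNAs that differed between CD36 KO and WT in at least 1 treatment; each point is a library, bars are means of 3 libraries, and each panel has its own axis from 0. BC018473 and Gm20478 lie at or near 0 in the WT libraries, and Gm15987 is higher in CD36 KO without oxLDL and lower in CD36 KO with it.

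Among the antisense RNAs with a name taken from their coding partner or with a known function, 21 were present at this level. Dnm3os is the host of the miR-199a and miR-214 hairpins and is known from mesenchymal cells. It had 1.16, 0.648 and 0.474 CPM in CD36 KO oxLDL and 1.43, 1.63 and 1.51 in CD36 KO control. Dnm3os had 0.201, 0.356 and 0.166 CPM in WT oxLDL and 0.764, 0.996 and 0.666 in WT control. It fell under oxLDL, with log2 fold changes of -0.98 in CD36 KO (SE 0.32, edgeR adjusted p = 0.0435) and -1.67 in WT (SE 0.38, adjusted p = 0.00531). Under oxLDL it was higher in CD36 KO than in WT (1.60, SE 0.38, adjusted p = 0.0126). The summed fibroblast markers, mostly Col1a1, were also higher there, 1070 to 1360 CPM against 413 to 567. Between oxLDL and control these sums overlapped in both genotypes, the control sums being 1100 to 1980 CPM in CD36 KO and 429 to 761 in WT. Of the fibroblast markers, Col1a1, Dcn and Pdgfra overlapped in both genotypes, while Col3a1, like Dnm3os, overlapped in neither. Col3a1 was at 155 to 217 CPM in CD36 KO oxLDL, against 229 to 477 in CD36 KO control. In WT it was at 46.2 to 90.7 CPM with oxLDL, against 93.4 to 216 in control. Wt1os starts 19 bases from Wt1, a mesothelial marker, on the other strand, and averaged 0.861 ± 0.224 CPM in CD36 KO oxLDL and 1.30 ± 0.151 in CD36 KO control. Wt1os averaged 0.393 ± 0.144 CPM in WT oxLDL and 0.712 ± 0.137 in WT control (SD, n = 3 each). Under oxLDL it was higher in CD36 KO by 1.08 (SE 0.30, adjusted p = 0.0243) and Wt1 by 1.29 (SE 0.29, adjusted p = 0.0088). The mesothelial markers other than Wt1 (Msln, Upk3b and Krt19) summed to 6.41 to 8.94 CPM in CD36 KO oxLDL and 3.26 to 5.77 in WT oxLDL, most of it Upk3b, while Msln and Krt19 were under 1 CPM in every library of both groups. The part of fibroblasts and mesothelial cells in these differences was not tested. The genotype call of Dnm3os was lost without CD36 KO oxLDL replicate 1, that of Wt1os without WT oxLDL replicate 3 or CD36 KO oxLDL replicate 1 or 3, and the oxLDL call of Dnm3os in CD36 KO without any 1 of 8 libraries, each control library of both genotypes and CD36 KO oxLDL replicates 2 and 3.

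The imprinted RNAs Airn and Kcnq1ot1 had no call in the 4 comparisons or the interaction. Airn, which runs against the receptor gene Igf2r, averaged 4.76 ± 0.567 CPM in CD36 KO oxLDL, 6.49 ± 0.978 in CD36 KO control, 5.97 ± 0.644 in WT oxLDL and 5.11 ± 0.779 in WT control (SD, n = 3 each). Kcnq1ot1, against the potassium channel gene Kcnq1, averaged 2.02 ± 0.258, 3.31 ± 1.0, 1.11 ± 0.467 and 1.80 ± 0.414 CPM (SD, n = 3 each). Their log2 fold changes lay between -0.71 and 0.88, with edgeR adjusted p from 0.0746 to 0.321 over the 4 comparisons. Kcnq1 itself fell under oxLDL, with -0.72 in CD36 KO and -1.51 in WT (SE 0.19 each, adjusted p = 0.0142 and 7.18e-05). Zeb2os, antisense to Zeb2, a transcription factor that maintains macrophage identity, averaged 15.5 ± 3.05 CPM in CD36 KO oxLDL and 27.4 ± 7.39 in WT oxLDL (SD, n = 3 each), a difference of -0.82 (SE 0.19, adjusted p = 0.0117). Zeb2 had -0.23 (SE 0.47, adjusted p = 0.774), but it was at 77.4 CPM in WT oxLDL replicate 1 and at 464 and 458 CPM in the other two, and without that library it was lower in CD36 KO, at -0.72 (SE 0.15, adjusted p = 0.00247). Rab10os was also lower there (-0.55, SE 0.14, adjusted p = 0.0164), as was Brip1os (-0.57, SE 0.12, adjusted p = 0.00795). The Zeb2os call was lost without CD36 KO oxLDL replicate 1 or 2 and the Rab10os call without CD36 KO oxLDL replicate 2 and with upper-quartile factors. With only the groups compared in the fit, the calls of Zeb2os, Rab10os and Brip1os were all lost. Phtf1os fell with oxLDL in CD36 KO (-0.89, SE 0.28, adjusted p = 0.0366) and was higher in CD36 KO in control medium (1.15, SE 0.29, adjusted p = 0.0246). The first call was lost without any 1 of 7 libraries (WT control replicates 2 and 3, each CD36 KO control library, and CD36 KO oxLDL replicates 2 and 3) and the second without any of the 6 control libraries. Of its exonic bases, 51.93% lie in exons of Rsbn1, on the opposite strand. Sp3os, Mypopos and Rab26os had no call in any comparison. Tsix and Nespas, 2 other studied antisense RNAs in the table, reached at most 0.00909 and 0.119 CPM in any group and were below the threshold.

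The authors' deposited comparison tables list between 62 and 87 of the 100 antisense RNAs, depending on the comparison. At a false discovery rate under 0.05, the authors' deposited tables have 13 higher and 31 lower with oxLDL in CD36 KO, and 12 higher and 12 lower with oxLDL in WT. For the genotype, the authors' deposited tables have 6 higher and 6 lower under oxLDL, and 23 higher and 8 lower in control medium. Of the calls made here, 32 of 41, 24 of 39, 10 of 24 and 7 of 11 have the same direction and pass in the authors' deposited tables for these 4 comparisons.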

How the data were processed

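RNA of 12 libraries was sequenced, 3 in each of the groups CD36 KO oxLDL, CD36 KO control, WT oxLDL and WT control, taken from the sample titles. The authors deposited a table of raw read counts and of RPKM per gene, with biotype and coordinates, and 4 comparison tables with log2 fold changes, p-values and false discovery rates. The build was mm10 and FastQC was used, per the submitters' processing notes. Which aligner, counter and annotation were used, and whether strand was used, is not given in the sources used here.

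From the counts, edgeR 4.0.16 (R 4.3.3) was fitted on all 12 libraries with 1 mean per group: filterByExpr with a minimum count of 10 (16281 of 43346 genes tested, among them all 100 antisense RNAs), TMM factors, robust quasi-likelihood tests, two-sided, Benjamini-Hochberg adjustment over all genes tested, and a threshold of 0.05. Standard errors are approximate: the size of the fold change over the root of F. TMM-scaled CPM divides a count by the library's total over the genes tested times its TMM factor, per 1000000. Levels per length use the table's gene length. The fit was checked on simulated counts. Depth was 35257762 to 65135955 counts, and levels near 0.1 CPM rest on a few counts.

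The antisense RNAs and the lists of names and markers were chosen with earlier results of these data known. The text names the 8 most abundant antisense RNAs, in each oxLDL comparison the 8 largest rises and 6 largest falls called, in each genotype comparison and the interaction the 4 largest called each way, those named after a coding partner or on a list of studied antisense RNAs, their coding partners, and the 3 on each side of the threshold; 1 of these is not reported here. Others were named after their values were seen, as pairs of few in number. Partners were to be found by the table's start and end, but these cover under 99% of the gene span for 80 antisense RNAs and gave only 15 a coding overlap, so gene spans of GENCODE M21 were matched by gene ID, a choice made after the data were seen; of several coding overlaps, one on the other strand and then the longest was taken. The lowest and highest correlation of same-numbered libraries' deviations from their group means was -0.399 and 0.357, so replicate numbers do not pair the libraries. The chi-square per degree of freedom between libraries of a group was 3 or more, so no 2 libraries were counted as 1 sample. Alternatives were upper-quartile factors, no low-count filter, DESeq2 1.42.0, only the groups compared, a replicate block, each library left out (members kept fixed) and 2 other choices of members. The mesothelial markers were also summed without Wt1, a choice made after the data were seen.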

Additional observations from a re-analysis of the deposited data

Results flagged for a closer look

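The response of Gm15987 to oxLDL differed between the genotypes by the test of the difference itself. It rose by 1.58 on the log2 scale in CD36 KO and by 4.62 in WT, a difference of -3.05 (SE 0.50, edgeR adjusted p = 0.0195). With 1 of 100 antisense RNAs called, the share was close to the 0.669% of all genes. DESeq2 gave -3.05 (adjusted p = 9.15e-05) and upper-quartile factors -2.98 (adjusted p = 0.0361). The call was lost with the replicate block and without any 1 of 7 libraries, WT control replicates 1 to 3, CD36 KO control replicates 1 and 2 and CD36 KO oxLDL replicates 1 and 2, where the adjusted p was at most 0.0836. No group holds 4 or more libraries, so single libraries were not screened within a group.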

How the results depend on the processing

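No called value of a named RNA changed sign under any alternative run: 1048 values stayed past the threshold and 107 did not. For oxLDL in CD36 KO, leaving out 1 library gave 8 to 15 higher and 16 to 44 lower, the most without WT oxLDL replicate 1 and the fewest lower without CD36 KO control replicate 1; 17 were left without CD36 KO control replicate 3 or CD36 KO oxLDL replicate 2 and 19 without CD36 KO oxLDL replicate 3. For oxLDL in WT it gave 12 to 18 higher and 14 to 34 lower, with 14 without WT control replicate 2 or 3 or WT oxLDL replicate 3. For the genotype under oxLDL it gave 6 to 16 higher and 7 to 15 lower, with 6 and 8 without CD36 KO oxLDL replicate 1 and 8 and 7 without replicate 2. In control medium it gave 4 to 23 higher and 2 to 8 lower, and for the interaction 0 to 1 higher and 0 to 4 lower, each highest without WT oxLDL replicate 1. With only the groups compared in the fit, 15 fell with oxLDL in WT, the genotype called 6 higher and 4 lower under oxLDL and 29 higher and 9 lower in control medium. Among the genotype calls under oxLDL lost there were those of Dnm3os, Wt1os, Zeb2os, Rab10os, Brip1os, Gm15987 and BC051226. The interaction needs all groups. The 29 RNAs with no shared exonic base gave 2 higher and 11 lower with oxLDL in CD36 KO, and 2 and 10 in WT. All 100 gave 12 and 29 in CD36 KO, and 15 and 24 in WT, so most rises were in the other RNAs. Over all genes tested, 11.6% were higher and 15.7% lower in CD36 KO, and 18.1% and 18.6% in WT. The part of shared reads in this was not tested. The 29 gave 3 and 4 for the genotype under oxLDL, 1 and 1 in control medium and 0 lower in the interaction. The 76 with a mean of at least 1 CPM over all libraries gave 4 higher for the genotype under oxLDL and 5 in control medium. DESeq2 gave 5 lower for the genotype in control medium, and 1 higher and 3 lower in the interaction. With the replicate block, 0 were lower in the interaction (Gm15987 at -3.03, adjusted p = 0.0661), and 24 and 18 fell with oxLDL in CD36 KO and WT; the numbers do not pair the libraries. Upper-quartile factors moved the median of all genes with oxLDL in WT to -0.129, against -0.006 with TMM, and the genotype under oxLDL to 0.092, against -0.026; the higher calls were then 37.1% and 71.2% of all calls, against 49.3% and 54.3%, and 64.8% with DESeq2 in control medium, against 78.4%. Shares over all genes are not given for the fits with 1 library left out, so those counts describe the list only. Levels near the threshold rest on few counts, which limits what can be called there.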
